A study of Drosophila melanogaster with 6 samples.

Results

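The genes described here encode the proteins that license replication origins in *Drosophila melanogaster*: the MCM genes *Mcm2*, *Mcm3*, *dpa* (which encodes Mcm4), *Mcm5*, *Mcm6* and *Mcm7*, and the ORC genes *Orc1*, *Orc2*, *Orc5* and *Orc6*. They were taken by symbol and are 10 of the 17606 genes in the deposited table of normalized counts, and all 10 passed the filter on low values that left 12930 genes for testing. Whole larvae homozygous for *ecd1*, a recessive temperature-sensitive missense allele of *ecd* (*ecdysoneless*, a gene needed for splicing and for ecdysone production), were compared with *w1118* larvae, the control strain. All larvae spent 10 days at 18°C and then 2 days at 29°C, which is restrictive for the allele. A sample was the pooled RNA of 8 larvae of the third instar, and each genotype had 3 samples. The sexes of the larvae are not given in the labels, and larvae kept at 18°C throughout were not analysed here.

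A replication origin is licensed between mitosis and S phase. The origin recognition complex, ORC, binds chromatin, and with Cdc6 and Cdt1 (the product of *dup* in flies) it loads the MCM proteins onto DNA as an inactive ring. In S phase this ring is turned into the moving helicase by Cdc45, the GINS complex and the kinases that act on them, and geminin keeps Cdt1 from loading MCM again. In larvae the imaginal discs, the neuroblasts and the germ line divide, while most other larval tissues grow by endocycles, in which DNA is replicated without mitosis. DNA is thus replicated in both kinds of cycle, and the need of each for ORC was not examined here.

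The recovered reads came to 74581798 to 118102006 per sample, and a single member was covered by 187 (*Orc6*) to 3156 (*Mcm2*) reads in a sample. *w1118* replicate 1 stood apart from the other controls. Its Spearman correlation over genes with *w1118* replicates 2 and 3 was 0.973 and 0.974, while these shared 0.995. The summed level of 6 salivary glue genes (*Sgs1*, *Sgs3*, *Sgs4*, *Sgs5*, *Sgs7* and *Sgs8*), which are switched on late in larval life, was 642240 normalized counts in this sample and 139.8 to 479.5 in the other 5, and none of the 6 genes was at 0 in all samples. The licensing genes are therefore given with all 6 samples and without *w1118* replicate 1, and for the other genes named a call that this sample decides is pointed out. Insert sizes were longer in *w1118* (mean 161.5 ± 1.37, SD over 3 samples) than in *ecd1* (138.7 ± 0.503) with no overlap, so insert size and genotype cannot be told apart. The RNA of *ecd* itself does not check the labels, because the allele is a missense change. It stood at 1563 to 2085 normalized counts in *w1118* and at 2111 to 2397 in *ecd1* (log2 fold change 0.38, adjusted p = 0.0769, limma).

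None of the 10 licensing genes passed the test between the genotypes when all 6 samples were used, and in 9 of them the highest level of all was found in a control sample, *w1118* replicate 1. Values are normalized counts, that is reads divided by 1 size factor per sample. Fold changes are differences of log2(normalized count + 1), *ecd1* minus *w1118*, tested with limma, with Benjamini-Hochberg adjustment over all genes tested. Values of a genotype are given in the order of replicates 1, 2 and 3. Intervals are 95% confidence intervals. RNA was taken from whole larvae, so fewer cells that express a gene and less RNA per cell cannot be told apart.

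**Figure D1:**
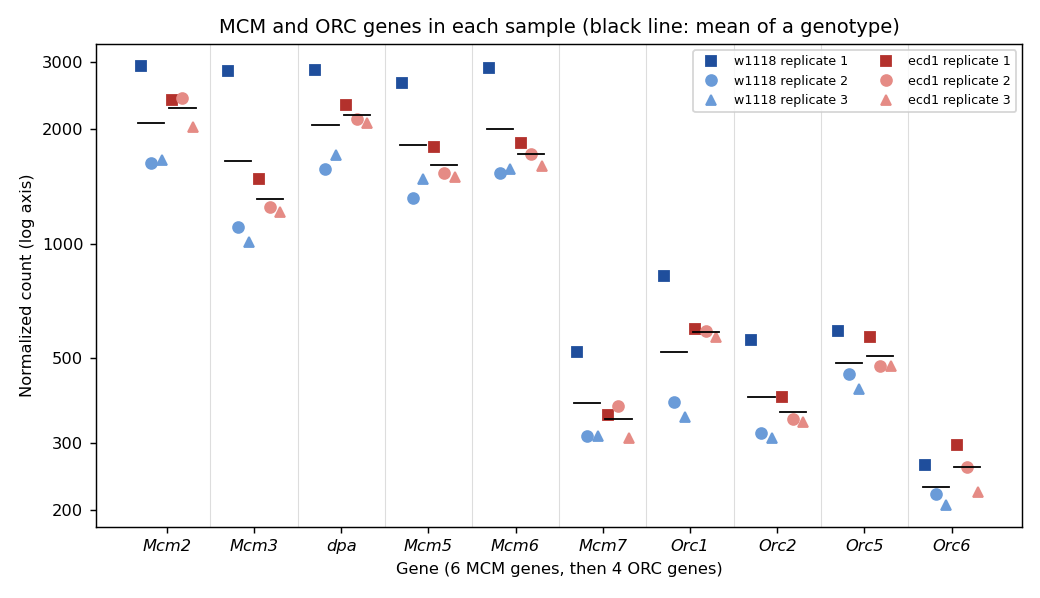
Normalized counts of the 10 genes (horizontal axis) in each of the 6 samples, on a log axis; squares, circles and triangles are replicates 1, 2 and 3, blue is *w1118*, red is *ecd1*, and black lines are means of 3 samples. *w1118* replicate 1 lies above every other sample in 9 genes, and in *Orc6* it lies below *ecd1* replicate 1.

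The MCM proteins form the ring that becomes the core of the helicase. *Mcm2* was at 2927, 1626 and 1661 normalized counts in *w1118* and at 2378, 2411 and 2020 in *ecd1*. All *ecd1* samples lay between *w1118* replicate 1 and the other controls. The difference with all 6 samples was 0.18 (SE 0.24, interval −0.38 to 0.75, adjusted p = 0.570 by limma). When *w1118* replicate 1 was left out, *Mcm2* rose in *ecd1* by 0.46 (SE 0.11, adjusted p = 0.0208), and this call of limma was lost when *w1118* replicate 2 (adjusted p = 0.117), *w1118* replicate 3 (0.117) or *ecd1* replicate 2 (0.0587) was left out besides.

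*dpa*, the gene of Mcm4, was at 2859, 1570 and 1705 normalized counts in *w1118* and at 2312, 2129 and 2075 in *ecd1*. As in *Mcm2*, the mutants lay between the first control and the others. The difference was 0.14 (SE 0.23, interval −0.40 to 0.68, adjusted p = 0.655, limma). It was 0.41 without *w1118* replicate 1 (SE 0.09, adjusted p = 0.0199), a rise whose adjusted p was 0.138 and 0.0957 when *w1118* replicate 2 or 3 was also left out.

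*Mcm3* varied most among the controls. It was at 2835, 1109 and 1010 normalized counts in *w1118*, a coefficient of variation of 62.2%, and at 1480, 1248 and 1214 in *ecd1*, where this coefficient was 11.0%. *w1118* replicate 1 was 2.68 times the mean of the other controls, the highest such fold of the 10 genes, and above 97.6% of all genes tested. With all 6 samples the difference was −0.17 (SE 0.38, interval −1.07 to 0.74, adjusted p = 0.753, limma), and without *w1118* replicate 1 it was 0.31 (SE 0.12, adjusted p = 0.0970).

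*Mcm5* and *Mcm6* encode further subunits of the same ring. *Mcm5* was at 2645, 1319 and 1480 normalized counts in *w1118* and at 1792, 1530 and 1493 in *ecd1*. *Mcm6* was at 2898, 1537 and 1569 in *w1118* and at 1842, 1720 and 1599 in *ecd1*. In both genes the first replicate was the highest of its genotype, and *ecd1* replicate 3 lay just above *w1118* replicate 3. The difference was −0.11 for *Mcm5* (SE 0.26, interval −0.73 to 0.51, adjusted p = 0.760, limma) and −0.15 for *Mcm6* (SE 0.25, interval −0.75 to 0.44, adjusted p = 0.652). In the fit without *w1118* replicate 1 it was 0.20 (adjusted p = 0.234) for *Mcm5* and 0.15 (adjusted p = 0.266) for *Mcm6*.

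*Mcm7* had the lowest counts of the MCM genes, with 520.1, 314 and 313 normalized counts in *w1118* and 355, 375 and 309 in *ecd1*. It was the 1 member in which an *ecd1* sample, replicate 3, was the lowest of all 6. The difference was −0.10 (SE 0.24, interval −0.66 to 0.46, adjusted p = 0.752, limma), and without *w1118* replicate 1 it was 0.14 (SE 0.15, adjusted p = 0.493).

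The ORC subunits bind chromatin before the MCM ring is loaded. *Orc1*, whose product is an ATPase of the complex, was at 824, 385 and 351 normalized counts in *w1118* and at 599, 590 and 570 in *ecd1*. The *ecd1* samples were the most even of any member, with a coefficient of variation of 2.52%, and lay between *w1118* replicate 1 and the other controls. The difference was 0.28 (SE 0.32, interval −0.48 to 1.05, adjusted p = 0.514, limma). *Orc1* rose without *w1118* replicate 1 by 0.67 (SE 0.12, interval 0.37 to 0.97, adjusted p = 0.0115), the largest change of the 10 genes in that fit, and its adjusted p was 0.0552 and 0.0974 when *w1118* replicate 2 or 3 was left out besides.

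*Orc2*, a core subunit, was at 559, 319.7 and 309.8 normalized counts in *w1118* and at 397, 346 and 341 in *ecd1*. *Orc5*, an ATPase-like subunit, was at 590.3, 457 and 416 in *w1118* and at 570.5, 479 and 477 in *ecd1*. In both genes the first replicate was the highest of each genotype and the other samples of both genotypes lay close together. The difference was −0.08 for *Orc2* (SE 0.25, interval −0.68 to 0.52, adjusted p = 0.826, limma) and 0.07 for *Orc5* (SE 0.18, interval −0.35 to 0.49, adjusted p = 0.770). Without *w1118* replicate 1 it was 0.20 (adjusted p = 0.317) and 0.22 (adjusted p = 0.266).

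*Orc6*, whose product helps to recruit MCM and has a second role in cytokinesis in flies, was at 263, 221 and 207 normalized counts in *w1118* replicates 1 to 3 and at 296, 259.7 and 224 in *ecd1* replicates 1 to 3. It was the 1 gene in which the highest sample was a mutant, and *w1118* replicate 1 was only 1.23 times the mean of the other controls. The difference was 0.17 (SE 0.19, interval −0.27 to 0.62, adjusted p = 0.498, limma), and 0.27 (SE 0.18, adjusted p = 0.273) without *w1118* replicate 1.

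**Figure D2:**
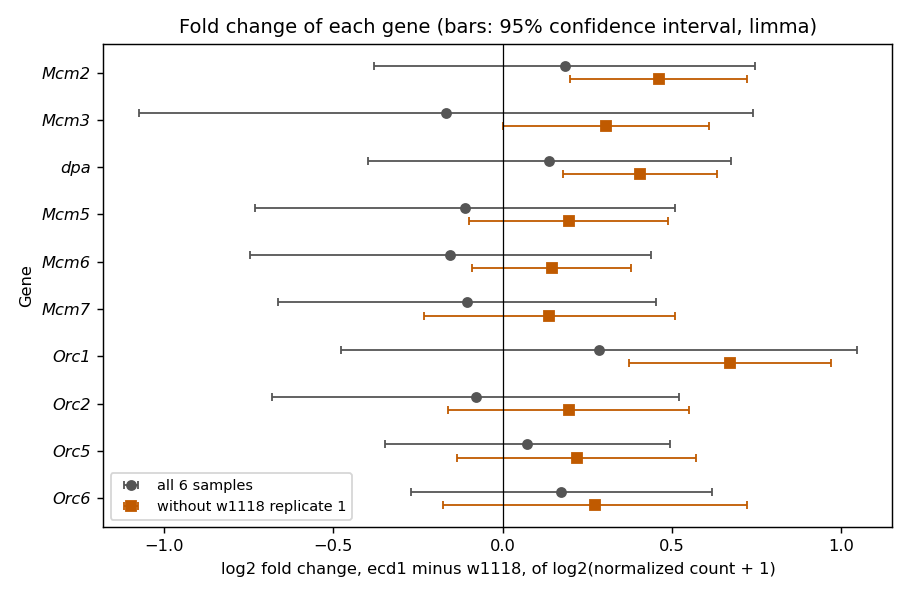
log2 fold change of each gene, *ecd1* minus *w1118* (horizontal axis), with its 95% confidence interval from limma; grey circles are from all 6 samples, and orange squares from the 5 samples without *w1118* replicate 1. All intervals from 6 samples span 0, and without *w1118* replicate 1 all 10 values lie above 0, from 0.14 (*Mcm7*) to 0.67 (*Orc1*).

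With all 6 samples, 0 of the 10 members passed an adjusted p of 0.05 by limma in either direction, where 16.0% of all genes tested rose and 19.1% fell. The count was also 0 at an unadjusted p below 0.05, and 0 by edgeR and by DESeq2 on the recovered reads. The median fold change was −0.11 over the MCM genes and 0.12 over the ORC genes, beside 0.0075 over all genes tested. The genotypes overlapped in all 10 members, while they did not overlap in 53.5% of all genes. An exact permutation test of 1 gene with 3 samples against 3 cannot go below p = 0.1, so such a test could call no gene. The calls by limma rest on its model of the values, with a spread partly pooled over all genes.

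Without *w1118* replicate 1, 3 of the 10 members (*Mcm2*, *dpa* and *Orc1*) rose and 0 fell by limma, where 19.0% of 12870 genes rose and 21.0% fell. All 10 fold changes were then above 0, with a median of 0.25 beside 0.01 over all genes. The sample left out was the highest control in all 10 members, so each of their fold changes had to move up. Over all genes its median fold over the other controls was 0.962, so the 2 medians are not a like comparison. In 9 of the 10 members, all but *Mcm7*, the 3 *ecd1* samples lay above both remaining controls, as they did in 34.7% of all genes. The same 3 genes were called by edgeR and by DESeq2 on the recovered reads, under TMM scaling and under scaling to equal totals, all without this sample. No member was called when *w1118* replicate 2 or 3 was left out in addition, which leaves 1 control sample that is assumed to vary like the others.

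Within the controls the members were high in the same sample. *w1118* replicate 1 was above every other sample in 9 of 10 members and in 22.2% of all genes tested. Its fold over the mean of *w1118* replicates 2 and 3 was 1.66 to 2.68 in the MCM genes (median 1.82) and 1.23 to 2.24 in the ORC genes (median 1.57), where the median of all genes was 0.962. At least 1.5-fold was reached by 8 of the 10 members and by 9.73% of all genes. The coefficient of variation was lower in *ecd1* than in *w1118* in all members except *Orc6* (13.9% in *ecd1* and 12.8% in *w1118*). It ran from 2.52% (*Orc1*) to 13.9% in *ecd1* and from 12.8% to 62.2% (*Mcm3*) in *w1118*, and *ecd1* replicate 1 was 1.03 (*Orc1*) to 1.23 (*Orc6*) times the mean of the other mutants. Replicate 1 was the highest sample of each genotype in 8 members, all but *Mcm2* and *Mcm7*.

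Several marker lists were high in *w1118* replicate 1 too, and their part in the levels of the licensing genes was not tested. The neuroblast list (*dpn*, *wor*, *ase*, *mira* and *insc*) was highest in this sample in 4 of 5 genes, and its summed level was 1846 there, 1201 to 1280 in the other controls and 1329 to 1538 in *ecd1*. The genes of this list differed in *ecd1*. The *ecd1* mean over that of *w1118* replicates 2 and 3 was 1.30 for *mira* and 1.24 for *insc*. It was 0.95 for *wor*, 0.91 for *ase* and 0.41 for *dpn*, which fell (−1.59, adjusted p = 0.0242 by limma). The 11 markers of imaginal discs were highest in *w1118* replicate 1 in 8 genes, with a sum of 11164, beside 7941 to 8375 in the other controls and 7790 to 8708 in *ecd1*. This sum also joins genes that differed. The *ecd1* mean over that of *w1118* replicates 2 and 3 was 1.29 for *wg*, 1.25 for *nub*, 1.14 for *so* and 1.11 for *dpp*. For the rest it was 0.66 (*Dll*) to 0.92 (*hh*). The prothoracic gland list had a higher fold of *w1118* replicate 1 over the other controls, with 5 of 5 genes highest in that sample (median fold 3.58). So had the fat body list, with 6 of 6 (median fold 3.19, range 1.105 to 3021). The median was 1.83 for neuroblast and 1.72 for disc markers. None of these markers was at 0 in all samples. The opposite was seen for the 8 markers of the early germ line, which had a median fold of 0.52 in *w1118* replicate 1, and for the 12 spermatocyte markers with 0.69. The median fold was 0.75 for 6 genes of body wall muscle.

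**Figure D3:**
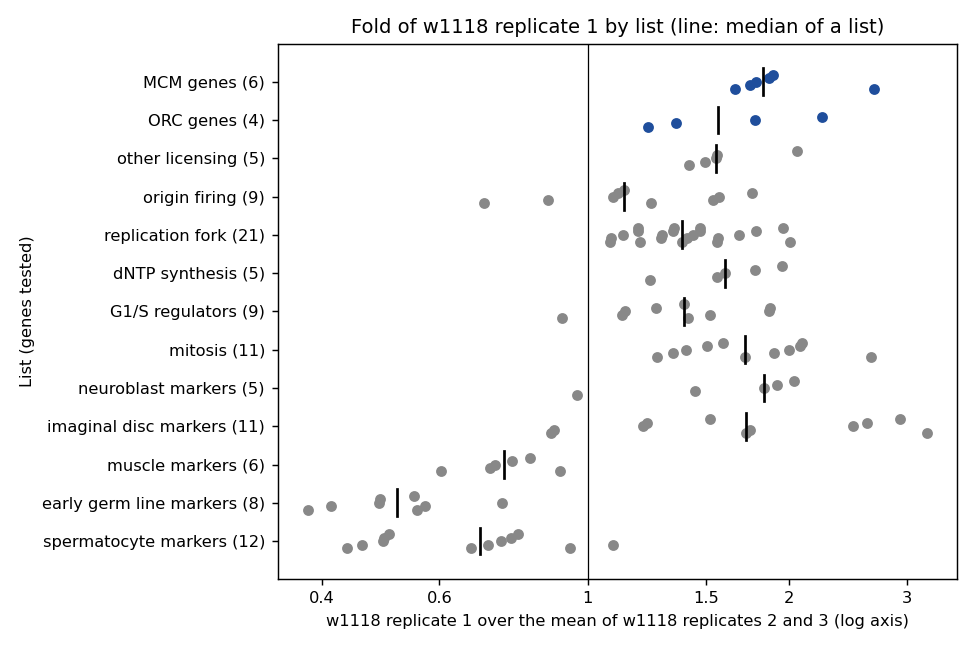
Level of each gene in *w1118* replicate 1 divided by its mean in *w1118* replicates 2 and 3, on a log axis, by list of genes, with black lines at the medians and the number of genes tested in parentheses. The median is 1.82 for the MCM genes and 1.83 for the neuroblast markers, and 0.52 for the early germ line markers. The marker lists of prothoracic gland (median 3.58), fat body (3.19), salivary gland (4071) and hemocytes (1.39) are not drawn.

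Between genes, levels were compared as normalized counts per kb of exon. In *ecd1*, *Mcm2* had the highest mean level with 783 per kb, followed by *dpa* (707 per kb), *Mcm5* (655 per kb) and *Mcm6* (617 per kb), and the ranges of neighbouring genes in this order overlapped across samples, although within each of the 3 *ecd1* samples the 4 genes stood in this order. *Mcm3* (478 per kb) lay below *Mcm6* and above all ORC genes without overlap. Of the ORC genes, *Orc5* (302 per kb) and *Orc6* (267 per kb) overlapped, with *Orc5* higher in each of the 3 samples, and lay above *Orc1* (186 per kb) and *Orc2* (181 per kb), which overlapped as well. In *w1118* the 5 MCM genes other than *Mcm7* had means of 601 (*Mcm3*) to 740.0 (*Mcm5*) per kb and the ORC genes of 165 (*Orc1*) to 289 (*Orc5*) per kb, without overlap between these sets. The median level per kb of the MCM genes over that of the ORC genes was 3.71 in *w1118* replicate 1 and 2.71 to 3.04 in the other 5 samples.

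*Mcm7* was last in this order, with 141 per kb in *ecd1* and 156 per kb in *w1118*, and its place turned on how its length was counted. Of its 2451 exon bases, 2003 (81.7%) are also exon bases of *asRNA:CR45871*, a non-coding RNA gene on the opposite strand, which is listed at 0 in all 6 samples. The share of reads on 1 strand was 0.50 in each sample, so the libraries did not keep strand. Across the table, 560 of 562 genes with no exon base of their own were at 0 in all samples (99.6%), as against 3.90% of the genes with at least 100 own bases, so reads in bases shared by genes appear not to be in the table. Divided by the 448 exon bases that it shares with no gene, *Mcm7* came to 773 per kb in *ecd1*, next to *Mcm2*, and to 853 per kb in *w1118*, the highest mean there. The other 9 members share 0% to 5.66% of their exon bases and kept their order. The fold change between genotypes does not depend on this length, and it rests on 260 to 491 reads per sample.

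**Figure D4:**
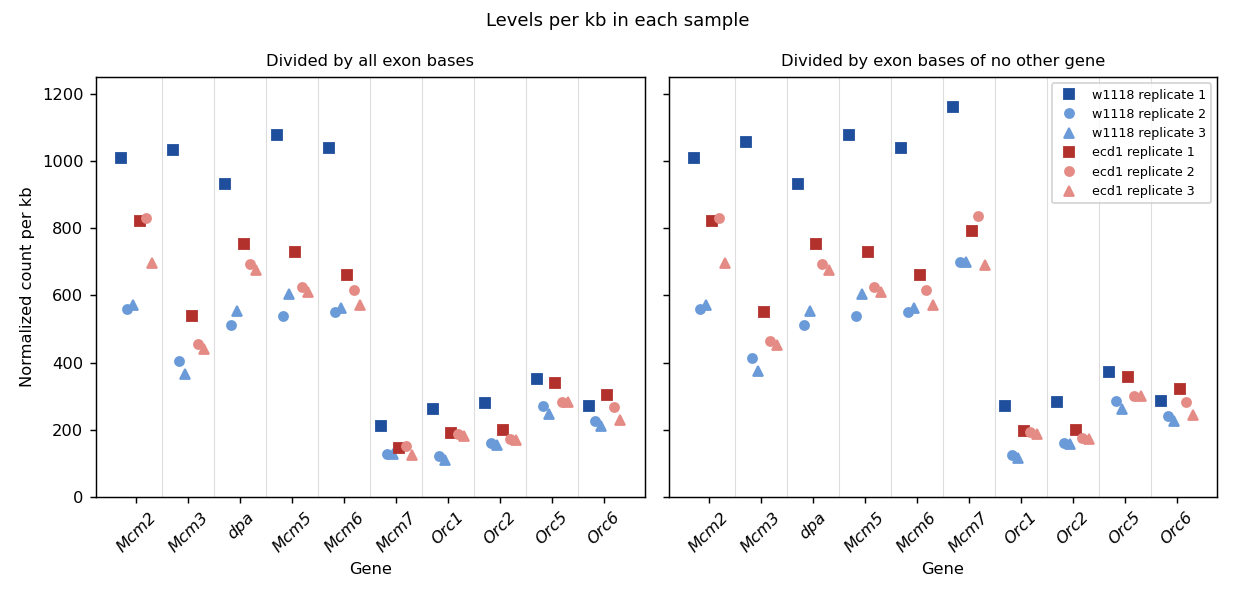
Normalized counts per kb of the 10 genes in each sample, divided by all exon bases of the gene (left) or by those that no other gene shares (right), with colours and symbols for genotype and replicate as in the plot of members by sample. *Mcm7* moves from a mean of 141 to 773 per kb in *ecd1*, while the ORC genes stay below the other MCM genes in both panels.

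Genome positions are given on the dm6 build. There, *Mcm2* is at 3R:8264970-8267924 on the plus strand, *Mcm5* at 3R:10788524-10791150 (plus) and *Orc2* at 3R:13964885-13967075 (plus). *Mcm3* is at X:5323855-5326738 (plus) and *Mcm6*, which has 1 exon, at X:6674387-6677176 (plus). *Mcm7* is at 3L:8891596-8894310 (plus) and *Orc5* at 2L:13829837-13831576 (plus). The genes *dpa* at 2R:7496702-7500145, *Orc1* at 2R:7522437-7525716 and *Orc6* at 2R:9845458-9846485 are on the minus strand of the same arm, and 22.3 kb separate *dpa* from *Orc1*.

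The other licensing factors are the genes that load the ring with ORC or hold it back. *Cdc6*, which joins ORC to bring in MCM, was the 1 gene of the 5 tested that rose (20%, beside 16.0% of all genes). It was at 1031, 480.1 and 523 normalized counts in *w1118* and at 1146, 1339 and 1122 in *ecd1*. Here the genotypes did not overlap, although *w1118* replicate 1 was again the highest control. *Cdc6* lies within *Zasp66* on the opposite strand and shares no exon base with it. The rise was 0.91 (SE 0.29, adjusted p = 0.0499 by limma) with all 6 samples and 1.26 (SE 0.13, adjusted p = 0.00438) without *w1118* replicate 1. The call from 6 samples was at the threshold: it was lost by edgeR (adjusted p = 0.0693), under scaling to equal totals (0.0645), without a trend (0.0721), with a minimum mean of 50 (0.0524), with a pseudocount of 0.5 (0.0501) and with no filter (0.05005), and when any 1 sample other than *w1118* replicate 1 was left out (0.0974 to 0.154). Once *w1118* replicate 1 was left out it held in each of the 9 further settings tried, with adjusted p-values of at most 0.0447.

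*Orc4*, a further ORC subunit, was at 893, 600.4 and 662 normalized counts in *w1118* replicates 1 to 3 and at 679.9, 716 and 675 in *ecd1* (difference −0.04, adjusted p = 0.880, limma). *dup*, the gene of Cdt1, was at 1953, 1286 and 1220 in *w1118* and at 1312, 1270 and 1247 in *ecd1* (−0.19, adjusted p = 0.468). In both genes *w1118* replicate 1 was the highest sample and the rest overlapped. *geminin*, whose product inhibits Cdt1, differed by −0.07 (adjusted p = 0.791) and *Mcm10*, which acts after loading, by −0.33 (adjusted p = 0.289). Without *w1118* replicate 1 these 4 genes differed by 0.13, 0.03, 0.13 and −0.12 in the order given. *Orc3* is listed at 0 in all 6 samples, and all 3315 of its exon bases are shared with *CG34315*, also listed at 0, so no level can be given for it.

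Of the 9 tested genes of origin firing, 1 rose and 1 fell with all 6 samples (11.1% each, below the shares of 16.0% and 19.1% of all genes): *RecQ4*, which helps to build the active helicase, rose by 0.47 (SE 0.12, adjusted p = 0.0274, limma), and *Psf1*, a GINS subunit, fell by 0.97 (SE 0.22, adjusted p = 0.0149). *RecQ4* was at 915, 819.8 and 861 normalized counts in *w1118* and at 1239, 1299 and 1059 in *ecd1*. *Psf1* was at 721, 454 and 485 in *w1118* and at 288, 242 and 299.8 in *ecd1*. Neither gene showed an overlap of the genotypes, and both calls held without *w1118* replicate 1. *RecQ4* lost its call under equal totals (adjusted p = 0.0552) and when *w1118* replicate 2 or 3 or *ecd1* replicate 1 or 2 was left out (0.0760 to 0.109), and *Psf1* lost it without *ecd1* replicate 2 (0.0616).

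Of 21 genes of the replication fork, 3 rose (14.3%, where 16.0% of all genes rose) and none fell, with a median of 0.09. These were *DNApol-epsilon255*, the catalytic subunit of the leading-strand polymerase (0.82, SE 0.15, adjusted p = 0.00883, limma), and *RPA3* (0.81, SE 0.17, adjusted p = 0.0120) and *RpA-70* (0.80, SE 0.14, adjusted p = 0.00705), subunits of the protein that covers single-stranded DNA. All 3 calls held without *w1118* replicate 1, and that of *RPA3* was lost without *ecd1* replicate 2 (adjusted p = 0.0528). Leaving out *w1118* replicate 1 gave 9 of 21 genes risen (42.9%, beside 19.0% of all genes) and a median of 0.37. Of 5 tested genes of dNTP synthesis 1 rose (20%, beside 16.0% of all genes) and none fell. *RnrL*, the large subunit of ribonucleotide reductase, rose by 0.72 (SE 0.20, adjusted p = 0.0308, limma). It was at 3949, 2664 and 2397 normalized counts in *w1118* and at 5021, 5284 and 4253 in *ecd1*, so the genotypes did not overlap. The call held without *w1118* replicate 1 and was lost without a trend (adjusted p = 0.0527) and when *w1118* replicate 2 or 3 or *ecd1* replicate 1 or 2 was left out (0.0820 to 0.108). *dUTPase* is listed at 0 in all samples and has no exon base of its own.

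Of the 11 genes of mitosis, 6 fell (54.5%, beside 19.1% of all genes) and none rose in *ecd1*, with a median of −0.88. The largest decreases were those of the kinase genes *aurA* (−1.22, SE 0.23, adjusted p = 0.00959, limma) and *polo* (−1.05, SE 0.19, adjusted p = 0.00827) and of the cyclin genes *CycB3* (−1.02, SE 0.25, adjusted p = 0.0206) and *CycA* (−1.02, SE 0.26, adjusted p = 0.0243). *w1118* replicate 1 was highest in 11 of 11 of these genes, as in most of the licensing genes. Without it 7 still fell (63.6%, beside 21.0% of all genes) and the median was −0.58. Leaving out other samples lowered the count: 2 genes fell without *ecd1* replicate 2, 3 without *ecd1* replicate 3 and 4 without *w1118* replicate 3, and *CycA* and *CycB3* were among the calls lost, while *aurA* and *polo* kept theirs in all of these fits. The difference between the licensing and the mitotic genes was not tested as such. Of the 12 spermatocyte markers, 8 fell with all samples (66.7%) and 11 without *w1118* replicate 1 (91.7%), beside the same 19.1% and 21.0% of all genes. The count was 5 when *w1118* replicate 3 was left out and 4 when *ecd1* replicate 2 was. Their summed level was 7659 to 12415 in *w1118* and 4337 to 5832 in *ecd1*. The part of germ line cells in the mitotic genes was not tested.

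**Figure D5:**
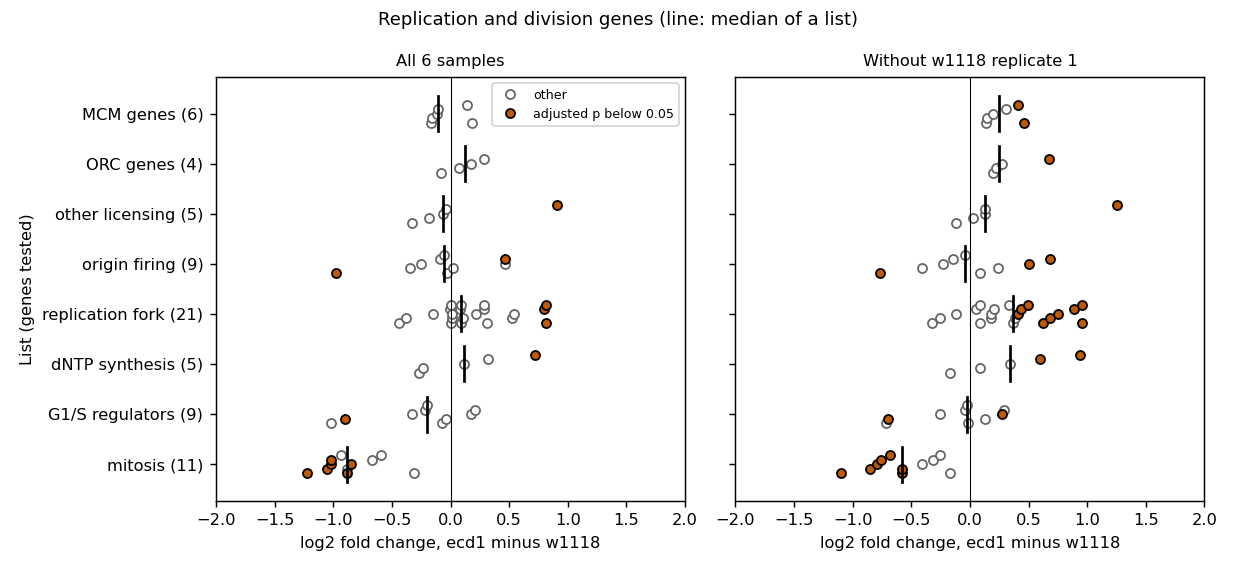
log2 fold change, *ecd1* minus *w1118* (horizontal axis), of the genes of each list with all 6 samples (left) and without *w1118* replicate 1 (right); filled points have an adjusted p below 0.05 by limma, black lines are medians, and the number of genes tested is in parentheses. The MCM median is −0.11 at left and 0.25 at right, while the mitosis median is −0.88 and −0.58.

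The genes whose profile over the 6 samples was nearest to the mean of the 6 MCM genes were found by the root mean square difference of centred log2 values among 10344 genes with a mean of at least 100. They were *rt*, which encodes a protein O-mannosyltransferase (0.0526), *mus101*, the fly relative of TopBP1 (0.0669), *PCNA*, the sliding clamp of the polymerases (0.0709), *unc-5*, a netrin receptor gene (0.0712), and *Inx3*, an innexin gene (0.0751). For the ORC genes they were *CG3430* (0.0392), the proteasome gene *Rpn12* (0.0474), *MESR6* (0.0480), the Polycomb group gene *esc* (0.0526) and the spindle checkpoint gene *Bub3* (0.0558). *PCNA* shows the common shape: it was at 4360, 2207 and 2249 normalized counts in *w1118* replicates 1 to 3 and at 3330, 2954 and 2640.0 in *ecd1* replicates 1 to 3. The first control was highest, the mutants lay in between and the other controls were lowest.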

How the data were processed

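Total RNA was isolated from whole larvae, and libraries for mRNA-seq were read as pairs of 100 bases. The authors used TopHat2 2.0.10 for alignment to dm6 and featureCounts 1.6.4 for counts per gene, and divided each count by a DESeq2 size factor. The deposited table thus holds a signal per gene and sample, not raw counts. Insert sizes and the fraction of reads from 1 strand were read from the sequencing report that the authors deposited. The deposited tables of the authors' comparisons (log2 fold changes, scores, ratios, p-values and GO terms) were not used, and no member is in the deposited splicing table.

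The value of 1 read was found from the steps of the values, and with it 100% of nonzero values gave whole reads (tolerance 0.05 of a read). Depth is given in reads recovered in this way. Exons came from Ensembl release 115 (17527 of 17606 gene IDs found).

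Genotypes were compared by limma 3.58.1 in R 4.3.3, with a trend, on log2(normalized count + 1), with genotype as the only term, for genes with a mean of at least 10. Alternatives were edgeR 4.0.16 (2244 genes higher and 2397 lower in *ecd1*) and DESeq2 1.42.0 (2547 and 2936) on the recovered reads, TMM scaling, equal totals, pseudocounts of 0.5 and 5, no filter, a minimum mean of 50, no trend, the replicate block and leaving out each sample. Repeats of the fit without *w1118* replicate 1 under other settings, and lengths without shared exon bases, were added after seeing the data. The test script was checked on simulated data.

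The members and lists were chosen with earlier results of these data known. Named genes were the members, the other licensing factors, up to 4 called genes of each list, by size of change and with a mean of at least 50, and the 5 nearest genes per group of members. *dpn*, with a mean of 44.5, is named besides, as the 1 neuroblast marker called. The mitosis, fork and marker lists were written from general knowledge. Biological replicates are separate samples of pooled larvae.

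Same-numbered samples of the genotypes deviated together from their means (Pearson r over 12930 genes of 0.209, 0.232 and 0.225). The labels give the numbers no meaning, and the pairing was read from these correlations. The blocked fit has the replicate number as a further term.

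Protein and promoter sequences of the members were not used here.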

Additional observations from a re-analysis of the deposited data

How the results depend on the processing

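The count of 0 members risen and 0 fallen was the same under all alternatives except leaving out *w1118* replicate 1. Over the fits that leave out 1 sample each, 0 to 3 members rose. In these fits the log2 fold change ran from −0.44 to 0.31 for *Mcm3*, from −0.025 to 0.41 for *dpa*, from −0.31 to 0.20 for *Mcm5*, from −0.31 to 0.15 for *Mcm6*, from −0.23 to 0.14 for *Mcm7*, from −0.23 to 0.20 for *Orc2* and from −0.034 to 0.22 for *Orc5*. It ran from −0.16 to 0.13 for *Orc4*, from −0.31 to 0.027 for *dup* and from −0.18 to 0.13 for *geminin*. *Mcm2*, *Orc1* and *Orc6* stayed above 0 in all of them. Without *w1118* replicate 1, the 3 members risen came to 0 to 3 when a further sample was left out, and *dup* (0.027) came to −0.047 under equal totals and to between −0.011 and 0.065 in fits that left out a further sample.

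The genes risen over the whole table numbered 882 (without *ecd1* replicate 2) to 2448 (without *w1118* replicate 1), with 1298 without *w1118* replicate 3 and 1338 without *ecd1* replicate 3, beside 2064 from all samples. The genes fallen numbered 1485 (without *ecd1* replicate 2) to 2709, with 1599 without *w1118* replicate 3, beside 2474. Scaling to equal totals gave 1480 risen and 2755 fallen genes and moved the median of all genes from 0.0075 to −0.06.

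With the replicate number as a block, no member was called, with adjusted p-values of 0.390 to 0.755 by limma, and *Cdc6* had 0.0495; the block changed no other call among the members and the other licensing factors. Among the other genes named it ended the call of *Pxn* (adjusted p = 0.0522), and it gave 9 mitosis genes fallen in place of 6.

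Counting error alone is 1.78% (*Mcm2*) to 7.31% (*Orc6*) of a member's value, and for *Orc1* in *ecd1* it is 3.60% to 4.57%, more than the coefficient of variation of 2.52%. With 3 samples per genotype, the log2 intervals of the members ran from the narrowest, −0.35 to 0.49 (*Orc5*), to the widest, −1.07 to 0.74 (*Mcm3*). A difference inside a gene's own interval is not excluded by the fit with all 6 samples. The longest transcript has the same length as all exons in each member, so that alternative could not change the levels per kb. Motif and protein comparisons in the plan were not run.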

Other observations

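Lists around licensing that belong to no comparison above gave these values. Of 9 regulators of the step from G1 to S phase, only *dap*, the inhibitor of Cyclin E and Cdk2, passed the test with all 6 samples (11.1% fallen, below the 19.1% of all genes). It fell by 0.90 (SE 0.19, adjusted p = 0.0124, limma), from 1989, 1362 and 1252 normalized counts in *w1118* replicates 1 to 3 to 865, 760.1 and 792 in *ecd1* replicates 1 to 3, with no overlap, and it fell by 0.70 without *w1118* replicate 1, but its call was lost without *ecd1* replicate 2 (adjusted p = 0.0521). Of 4 genes of the ubiquitin ligase that removes Cdt1 in S phase, 1 rose (25%, beside 16.0% of all genes). This was *pic*, the fly DDB1 gene, which rose by 0.47 (SE 0.09, adjusted p = 0.0105, limma), from 5706 to 6433 in the controls to 7815 to 8905 in the mutants. None of the 5 tested subunits of the DREAM complex, a regulator of cell cycle genes, and none of the 4 tested genes of the endocycle list passed the test with all 6 samples by limma, where 16.0% of all genes rose and 19.1% fell. Under equal totals and by DESeq2, 3 of the DREAM genes fell, 1 fell with the replicate block and without *ecd1* replicate 1, and 1 rose without *w1118* replicate 1. *Myb* and *SuUR* of these lists are listed at 0 in every sample and have no exon base of their own. The 2 genes *rec* and *CG3430*, listed beside the MCM genes, did not pass either, and *w1118* replicate 1 was their highest sample.

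Further marker lists were counted as well. Of the 5 prothoracic gland genes, which make ecdysone, *spok* fell by 2.36 (adjusted p = 0.00827, limma) and *nvd* by 1.57 (adjusted p = 0.0117), which is 40% of them beside 19.1% of all genes. *w1118* replicate 1 was highest in 5 of 5. Both calls held without this sample, and that of *nvd* was at the threshold without *ecd1* replicate 2 (adjusted p = 0.05001). Of 4 hemocyte genes, *NimC1* (0.59, adjusted p = 0.0170, limma) and *Pxn* (0.59, adjusted p = 0.0363) rose and *eater* fell by 1.07 (adjusted p = 0.0455) with all 6 samples. That is 50% risen and 25% fallen, beside 16.0% and 19.1% of all genes. The call of *eater* was lost without *w1118* replicate 1 (adjusted p = 0.0539, limma). It was also lost when *w1118* replicate 3 or any *ecd1* sample was left out (0.0687 to 0.146) and without a trend (0.0658). That of *NimC1* was lost when *w1118* replicate 2 or 3 or *ecd1* replicate 2 or 3 was missing (0.0539 to 0.0700). That of *Pxn* was lost when any sample other than *w1118* replicate 1 was left out (0.0670 to 0.114). *Pxn* also lost it under equal totals (0.0560) and without a trend (0.0621). Of the germ line and disc markers named, *bgcn* fell by 1.57 (adjusted p = 0.0162, limma), *eya* by 0.85 (adjusted p = 0.0477), and the spermatocyte genes *dj*, *fzo*, *Mst87F* and *sa* by 3.02, 2.24, 2.22 and 1.90 (adjusted p = 0.00417 to 0.0129). *bgcn* was the only early germ line marker of 8 called (12.5%) and *eya* the only disc marker of 11 (9.09%), beside 19.1% of all genes fallen. The call of *eya* was lost when any 1 sample was left out (adjusted p = 0.0554 to 0.156, limma). It was also lost under TMM scaling (0.0547), with no filter (0.0503), without a trend (0.0606) and by edgeR (0.0533). That of *bgcn* was lost without *w1118* replicate 3 or *ecd1* replicate 1 or 2 (0.0522 to 0.0602), and that of *sa* without *ecd1* replicate 2 (0.0531). Of the 5 neuroblast markers 1 fell, *dpn* (20%, beside 19.1% of all genes), by 1.59 (adjusted p = 0.0242, limma). This count became 0 without *w1118* replicate 2 or *ecd1* replicate 2 or 3. Of the 6 genes each of the fat body, salivary gland and muscle lists none passed with all 6 samples.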
